A study of Drosophila melanogaster with 6 samples.

Results

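RNA polymerase II cannot find a promoter or start a transcript alone. The general factors TFIIA, TFIIB, TFIIE and TFIIF assemble with it at the start site, TFIID recognizes the core promoter through the TATA-binding protein and its TBP-associated factors (TAFs), and Mediator carries signals from enhancer-bound activators to the polymerase. The *Drosophila* egg is loaded with mRNAs for this machinery by the mother, so the genes that build it are measured in the early embryo against a mixture of maternal and newly made transcripts.

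The genes described here were chosen by symbol and chromosome arm: every gene named *MED* or *Taf* followed by a digit, *TfII* or *RpII*, on 2L, 2R, 3L or 3R. There are 47 such genes, among 13880 loci on these arms and 16596 loci in all. They comprise 22 Mediator subunits, 12 TAFs, 8 general factor genes, 4 subunits of RNA polymerase II and *RpIII128*, a subunit of RNA polymerase III whose symbol fits the same pattern. A further 6 genes fit the pattern on X (*MED18*, *MED22*, *RpII215*, *Taf8* and *TfIIA-S-2*) and on chromosome 4 (*MED26*). They are listed at 0 in both genotypes, as are all 2716 loci of X, 4 and Y, so they count as not measured and are not described further.

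Poly(A) RNA was sequenced from 6 samples of hand-sorted stage 5 embryos, the cellularizing blastoderm. In 3 samples the embryos were *w1118*, the wild-type control strain. In the other 3 they had been laid by females homozygous for *zldZnF2*, a Cas9-engineered allele of *zelda* with a mutated second zinc finger, and so inherited the mutant gene product from the mother. Zelda is the pioneer factor that opens much of the zygotic genome for transcription. The comparison asks how expression differs when the mother supplies mRNA for the altered protein.

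The authors' table holds 1 FPKM (sequenced fragments scaled to transcript length and to the number of mapped fragments) per genotype and locus, for the 3 samples together. The spread between samples and the depth of each library are therefore unknown, no test across replicates was possible, and every difference below is a description of these pooled values. Differences are log2(FPKM + 1) in *zldZnF2* minus log2(FPKM + 1) in *w1118*, which understates the change of low genes. A locus counted as expressed if its FPKM reached 1 in *w1118*, in *zldZnF2* or in both. This left 6265 autosomal loci, whose median difference was -0.00, and all 47 genes of the transcription machinery. In whole embryos, fewer cells with an mRNA and less of it per cell cannot be told apart.

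All 8 zygotic blastoderm markers were above an FPKM of 100 in both genotypes, from 102.3 (*eve*) to 1919 (*slam*) in *w1118* and from 127.4 (*eve*) to 1927 (*slam*) in *zldZnF2*. Of these, *ftz* was more than 1.5-fold higher in *zldZnF2* (108.6 and 211.2) and *bnk* more than 1.5-fold lower (1398 and 872.2). The 6 eggshell markers of follicle cells were at most 1.20 in either genotype, with *Cp19* and *Vm32E* listed at 0 in both. Maternal *bcd* mRNA was at 37.8 in *w1118* and 9.22 in *zldZnF2*, *nos* at 32.2 and 26.8, and *osk* at 2.66 and 1.61, a summed FPKM of 72.6 and 37.6. Of 5 muscle genes, *Act57B*, *Mf* and *Mlc2* were higher in *w1118* (21.7, 4.92 and 4.04 against 0.336, 0 and 0.313). *Tm1* was at 509.3 and 504.5, and *Prm* at 0.896 and 1.91. The summed FPKM of the 5 genes was 540.9 and 507.0, nearly all of it from *Tm1*. Among 3 neuronal genes *nSyb* was the highest, at 1.21 in *w1118* and 0.350 in *zldZnF2*. Markers of the stage, of maternal mRNA and of muscle thus all included genes that moved with genotype, and their part in the values below was not tested.

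The machinery was abundant. Its median FPKM was 104.7 in *w1118* and 98.3 in *zldZnF2*, against 20.0 and 20.1 over all expressed loci. The lowest member in both genotypes was *Taf12L* and the highest was *TfIIA-S*. Over the 47 genes the median difference was 0.18, and 33 genes (70.2%) were higher in *zldZnF2*, compared with 49.6% of all expressed loci. More than 2-fold higher in *zldZnF2* were 5 genes, *MED30*, *MED25*, *MED14*, *MED17* and *RpIII128*. These are 10.6% of the members, close to the 9.82% of all expressed loci that passed this limit. At 1.5-fold, 8 genes were higher, or 17.0% against 21.0% of all expressed loci. None of the 47 genes was more than 1.5-fold lower, where 17.9% of all expressed loci were, and 8.16% were more than 2-fold lower. The largest decrease was that of *MED1*, a difference of -0.40.

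The 5 genes beyond 2-fold and the 3 further genes beyond 1.5-fold were all among the 10 least abundant of the machinery in *w1118*. Of the 10 members with an FPKM under 30 in *w1118*, all 10 were higher in *zldZnF2*, as were 60.7% of all expressed loci under 30. The 37 members at 30 or above all differed by less than 1.5-fold, as did 80.8% of all expressed loci at this level. The *w1118* level used for this split also enters the difference. Next to the 1.5-fold limit were *MED28*, which passed it with a difference of 0.67, and *MED16*, which did not, with 0.53. Next to the 2-fold limit were *RpIII128*, which passed it with 1.00, and *MED20*, which did not, with 0.81.

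Mediator is built of a head that contacts the polymerase, a middle, a tail that receives activators and a detachable kinase module, with MED14 running through as the scaffold. Its 22 measured genes had a median difference of 0.23, and they hold 7 of the 8 members beyond 1.5-fold. Those 7 are 31.8% of the Mediator genes, against the 21.0% of all expressed loci. The scaffold gene *MED14* (3L, 593246 to 599239) had 9.54 FPKM in *w1118* and 22.0 FPKM in *zldZnF2*, a difference of 1.13. It has 9 exons in its longest annotated transcript. The gene on the opposite strand whose exons overlap it, *CG13893*, is listed at no more than 0.0483 in either genotype.

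In the head, *MED17* (3R, 18189072 to 18191265), the subunit around which the yeast head module is organized, went from 11.1 to 25.1, a difference of 1.12. *MED20* (2L, 8071812 to 8072848), another head subunit, went from 7.35 to 13.6, a difference of 0.81. These were the least abundant of the head genes. The abundant ones were near their *w1118* level, with *MED11* at 162.0 and 190.0, *MED6* at 68.6 and 63.9, and *MED8* at 53.9 and 63.3. *MED20* lies 46 bases from the divergently transcribed *Trf*, a relative of the TATA-binding protein gene. *Trf* was at 49.1 in *w1118* and 41.7 in *zldZnF2*, a difference of -0.23, so the neighbours stood on opposite sides of 0.

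In the middle module most genes lay on the other side of 0. Of its 8 genes 6 were lower in *zldZnF2*, as were 3156 of all 6265 expressed loci, and its median difference was -0.23. All 8 have a mean FPKM between 30 and 300. Over all expressed loci the median was -0.16 at 30 to 100 and -0.07 at 100 to 300. *MED21*, the most abundant Mediator gene in *w1118*, was at 205.1 there and 176.2 in *zldZnF2*. *MED10* had 126.1 and 98.3, and *MED4* 79.6 and 68.0. *MED1* (3L, 21628325 to 21634446), whose mammalian counterpart is contacted by nuclear receptors, had 42.2 and 31.6, and 25.1% of expressed loci had a difference below its -0.40. The exceptions were *MED7*, at 82.0 and 89.9, and *MED19*. *MED19* (3L, 17843725 to 17846501), which binds Hox proteins in *Drosophila*, was the least abundant gene of the module in *w1118* and went from 25.9 to 42.7, a difference of 0.70. *MED9* and *MED31* share their values with *CG42518* and *slx1*, in whose loci they lie, at 136.3 and 116.2 and at 120.9 and 101.8.

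In the tail all 6 genes were above 0, as were 49.6% of all expressed loci, and the median difference was 0.34. *MED25* (3R, 20008947 to 20011712), the human form of which is a docking site for activation domains, was the least abundant Mediator gene in both genotypes. It stood at 4.76 in *w1118* and 11.7 in *zldZnF2*, a difference of 1.14. *MED16* followed at 14.9 and 21.9, short of 1.5-fold. *MED24* was at 38.2 and 47.9 and *MED27* at 60.4 and 77.5, differences of 0.32 and 0.35. The smallest differences of the tail, 0.08 for *MED23* and 0.07 for *MED15*, come from loci that each hold another gene, *CG3700* and *ush*. For *MED15*, a target of activation domains in yeast and human cells, the value of 125.2 and 131.2 is thus also that of *ush*, a zygotic gene of the dorsal ectoderm.

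*MED28* and *MED30*, subunits that animals have and budding yeast lacks, are the remaining Mediator genes among the 47. *MED30* (3L, 652987 to 654089) had the largest difference of all 47 genes, 1.18, from 14.7 to 34.6. It lies 53747 bases from *MED14*. *MED28* (3R, 25477003 to 25477745) went from 22.3 to 36.1, a difference of 0.67. The pair therefore stood within a few units of each other in *zldZnF2*.

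**Figure D1:**
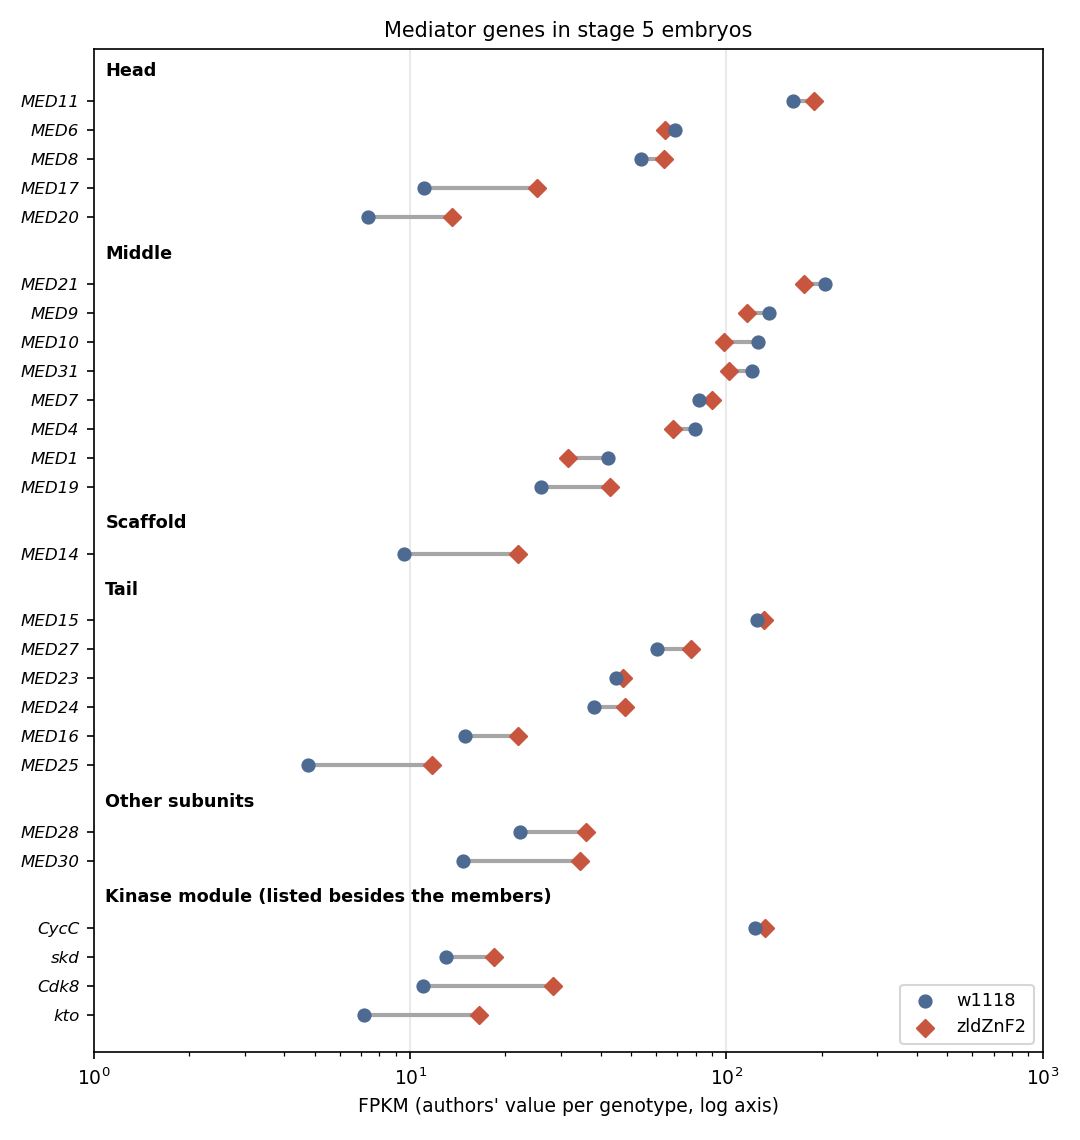
FPKM (log axis) of the 22 Mediator genes and of the 4 kinase module genes listed besides them, in *w1118* (blue circles) and *zldZnF2* (red diamonds), 1 pooled value per genotype, joined by a grey line and sorted by level within each module. The low genes *MED25*, *MED20*, *MED14*, *MED17* and *MED30* lie well to the right in *zldZnF2*, while most of the middle module lies slightly to the left.

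Mediator mRNAs were less unequal in *zldZnF2*. The highest Mediator FPKM was 43.1 times the lowest in *w1118* (*MED21* over *MED25*) and 16.2 times the lowest in *zldZnF2* (*MED11* over *MED25*). The standard deviation of log2 FPKM over the 22 genes was 1.58 in *w1118* and 1.13 in *zldZnF2*. For the 12 TAFs it was 1.60 and 1.61, and for the 4 polymerase II genes 0.28 and 0.32. The narrowing was not particular to Mediator. For the 8 general factor genes the values were 1.31 and 1.22, and for 52 machinery genes outside the symbol pattern 1.80 and 1.47. Over all expressed loci above 0 in both genotypes they were 2.91 and 2.79. The highest FPKM of these loci was 9.01e+10 and 7.07e+09 times the lowest. Values near 0 thus enter their spread, unlike that of the machinery groups. Within the scaffold and head, *MED14* and *MED17* kept nearly the same ratio of FPKM, 0.863 in *w1118* and 0.876 in *zldZnF2*. *MED7* and *MED21*, whose products form a hinge between the modules in yeast, had ratios of 0.400 and 0.510.

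The kinase module genes carry other names and were listed separately. All 4 were higher in *zldZnF2*, with a median difference of 0.79. Of all expressed loci 49.6% were higher, and 60.7% of those under an FPKM of 30 in *w1118*. *Cdk8*, the kinase, went from 11.0 to 28.3, a difference of 1.29. *kto* (Med12) went from 7.16 to 16.5, a difference of 1.10, and *skd* (Med13) from 13.0 to 18.4, a difference of 0.47. The abundant *CycC*, the cyclin partner of Cdk8, stood at 122.8 and 132.6. With these genes added, 9 of 26 Mediator genes (34.6%) were beyond 1.5-fold higher and none beyond 1.5-fold lower. Of all expressed loci 21.0% were beyond 1.5-fold higher and 17.9% beyond 1.5-fold lower.

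**Figure D2:**
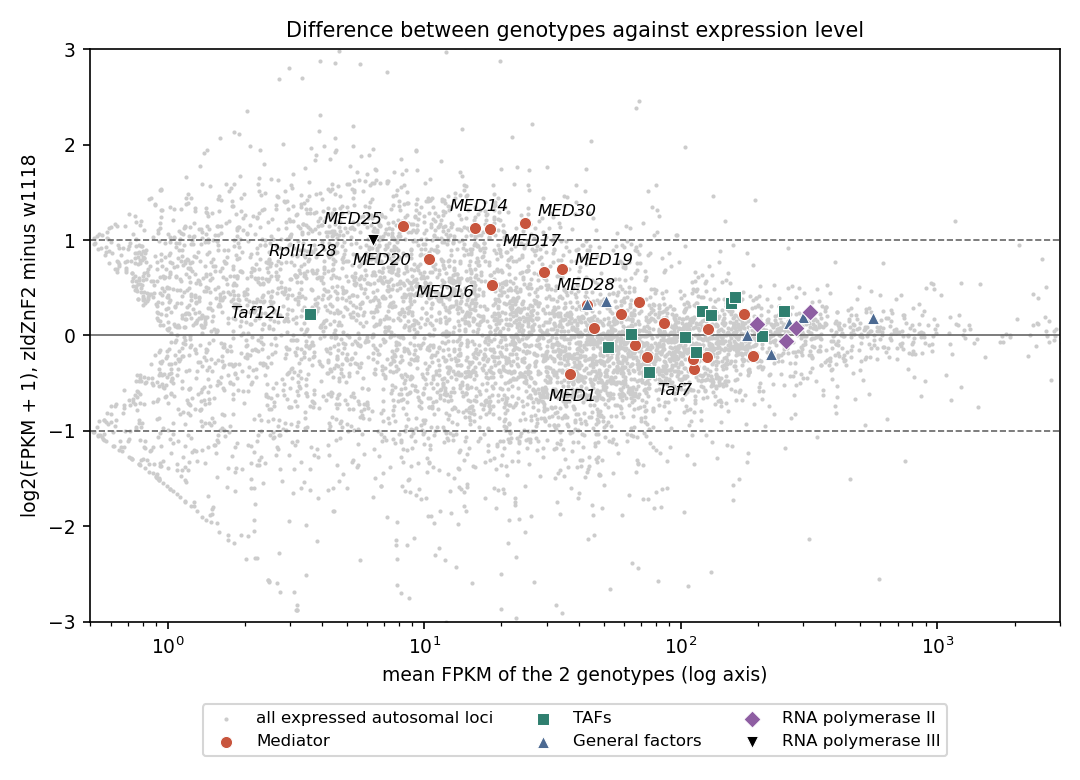
Difference between genotypes in log2(FPKM + 1), *zldZnF2* minus *w1118*, against the mean FPKM of both genotypes (log axis) for the 47 genes by role and for all expressed autosomal loci (grey, 85 loci outside the axes). Dashed lines mark 2-fold. The members above a mean FPKM of 100 lie close to 0, and those around 10 to 30 lie above it.

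The difference went with the level. Across the 22 Mediator genes, Spearman's rho between mean FPKM and difference was -0.76, across all 47 genes -0.43 and across the 12 TAFs 0.52. These points come from the same pooled libraries, and level enters both axes. Over all 6265 expressed loci rho was -0.17. Among expressed loci with a mean FPKM of 3 to 30 the median difference was 0.19, and 32.0% were more than 1.5-fold higher. The 9 members in this range had a median of 1.00, and 7 of them were more than 1.5-fold higher. At a mean FPKM of 30 or more, 2653 loci had a median of -0.09, and 5.01% were more than 1.5-fold higher. The 38 members there had a median of 0.10, with *MED19* alone beyond 1.5-fold.

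In TFIID none of the 12 TAF genes reached 1.5-fold in either direction. Of all expressed loci 61.1% lay within this limit, and 81.8% of those with a mean FPKM of at least 30, the level of every TAF but *Taf12L*. Among the TAFs 7 were above 0 and 5 below, where 49.6% of all expressed loci were above 0. The median difference was 0.12 (0.02 without the low *Taf12L*). *Taf1*, which encodes the largest TAF, was at 104.7 and 103.2, and *Taf2*, which with Taf1 recognizes the initiator element, at 63.5 and 64.5. *Taf12*, a histone-fold TAF, had the smallest difference of the TAFs, with 207.0 and 206.3. No other TAF was as close to 0 as these 3.

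The largest increase among the TAFs was that of *Taf4* (3L, 16113212 to 16121651), a TAF contacted by activators and the histone-fold partner of Taf12, from 140.0 to 185.7, a difference of 0.40. The largest decrease was that of *Taf7* (3R, 7907333 to 7909721), from 85.2 to 65.0, a difference of -0.39. Exons of *Taf7* overlap those of *EMC1* and *Prat* on the opposite strand, listed at 139.5 and 86.9 and at 4.69 and 8.06. As the library kit does not mark strand, reads in such overlaps cannot be assigned to a gene.

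Partner subunits were compared by the ratio of their FPKM, which is per length, but reads in exon overlaps limit some of these ratios. *Taf10* overlaps *colt* on the opposite strand, listed at 107.3 and 104.6. *Taf13* overlaps *Pyroxd1* (listed as *CG10721*), at 12.6 and 13.5. The same limit holds for the ratios that use *MED21*, *TfIIA-L*, *TfIIFbeta* and *RpII33*. *Taf11* and *Taf13*, a histone-fold pair, differed in opposite directions, with *Taf11* at 122.1 and 108.2 and *Taf13* at 138.3 and 175.6. Their ratio was 0.883 in *w1118* and 0.616 in *zldZnF2*. The ratio of *Taf4* to *Taf12* went the other way, from 0.676 to 0.900. *Taf10* and *Taf10b* are paralogs that lie 44 bases apart on 2L (2767890 to 2768612, and 2767286 to 2767845), in opposite orientation. *Taf10* was at 110.8 and 132.2 and *Taf10b* at 229.6 and 275.0, so that the ratio was 0.483 and 0.481. The remaining TAFs were *Taf6*, at 120.9 and 140.3, and *Taf5*, at 54.4 and 50.0.

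*Taf12L*, a testis homologue of *Taf12*, was the only TAF at a low level, at 3.23 and 3.94. Other testis TAFs were at or near 0: *nht*, *can* and *sa* were at most 0.114 in either genotype. The exception was *mia*, the testis relative of *Taf6*, at 2.28 in *w1118* and 9.64 in *zldZnF2*, a difference of 1.70. This was the largest increase among all machinery genes examined, members or not.

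**Figure D3:**
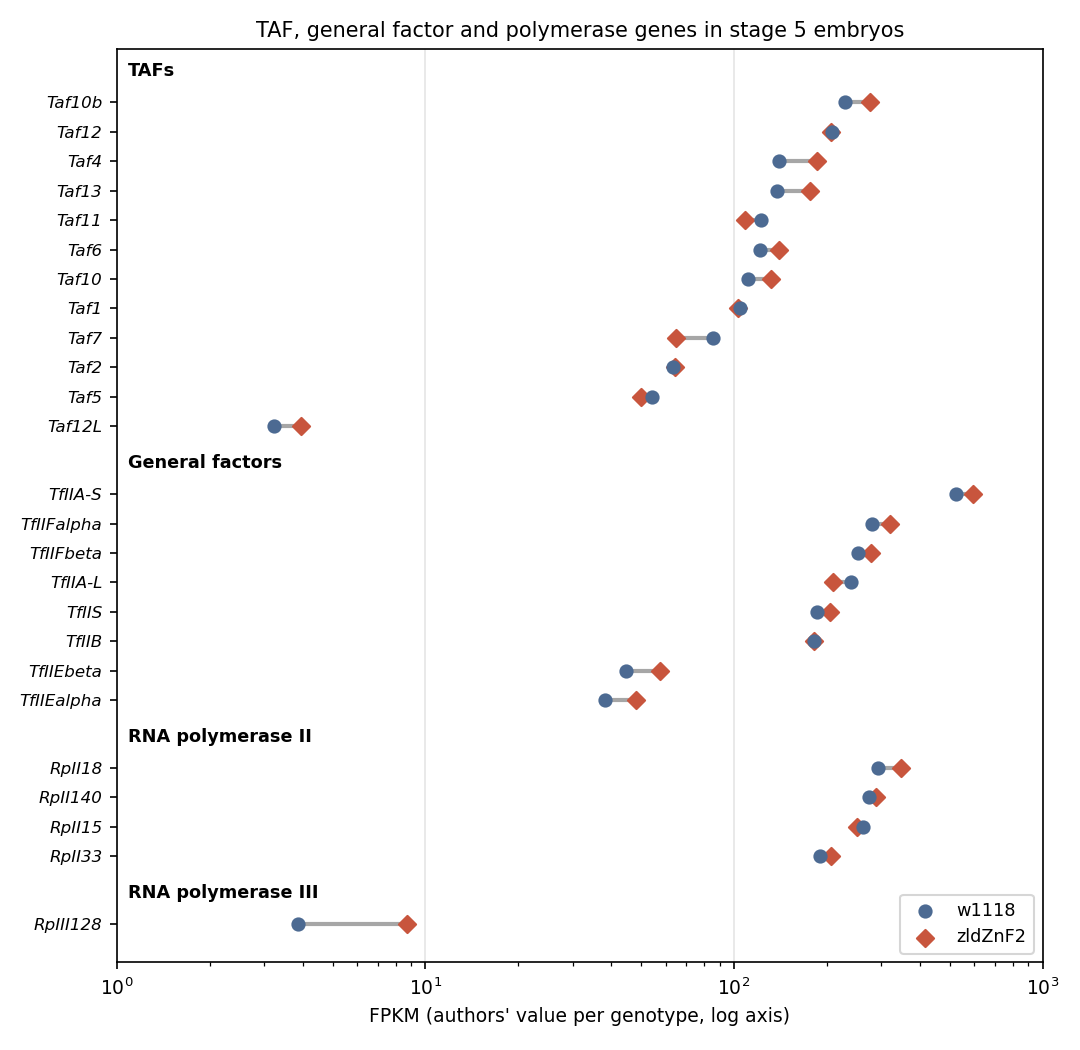
FPKM (log axis) of the 12 TAF genes, 8 general factor genes, 4 RNA polymerase II genes and *RpIII128* in *w1118* (blue circles) and *zldZnF2* (red diamonds), 1 pooled value per genotype, joined by a grey line. All but *Taf12L* and *RpIII128* are above an FPKM of 30 in both genotypes, and apart from *RpIII128* each pair of symbols is less than 1.5-fold apart.

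Of the 8 general factor genes 7 were higher in *zldZnF2*, as were 49.6% of all expressed loci. None was higher by 1.5-fold, and the median difference was 0.16. All 8 have a mean FPKM of at least 30, where 81.8% of all expressed loci lay within 1.5-fold. *TfIIB*, which bridges the promoter complex and the polymerase, was the nearest to 0 at 181.2 and 182.0. *TfIIA-S* (3R, 23890388 to 23891060), the small TFIIA subunit, was the most abundant of all 47 genes at 525.3 and 596.4. *TfIIA-L*, which encodes the large TFIIA subunits, was the single general factor gene below 0, with 239.9 and 210.0. The ratio of *TfIIA-L* to *TfIIA-S* was therefore 0.457 in *w1118* and 0.352 in *zldZnF2*.

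The TFIIE genes were the least abundant general factors and had the largest differences among them. *TfIIEalpha* stood at 38.1 and 48.2 and *TfIIEbeta* at 44.7 and 57.7, differences of 0.33 and 0.36. Their ratio was almost the same in both genotypes, 0.853 and 0.835. The TFIIF genes, whose products stabilize the polymerase at the promoter, had 279.0 and 320.4 (*TfIIFalpha*) and 252.7 and 277.7 (*TfIIFbeta*), a ratio of 1.10 and 1.15. *TfIIS*, which rescues stalled polymerase by stimulating transcript cleavage, was at 185.4 and 204.8.

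The 4 autosomal RNA polymerase II genes with RpII symbols were among the most abundant members, and the median difference was 0.10. *RpII140* (now *Polr2B*; 3R, 14125791 to 14130111), the second-largest subunit, was at 273.0 and 288.3. *RpII33* (*Polr2C*) was at 190.1 and 206.2, *RpII15* (*Polr2I*) at 261.6 and 250.7, and *RpII18* (*Polr2F*), a subunit shared with the other nuclear polymerases, at 292.6 and 347.4. The ratio of *RpII140* to *RpII33* was 1.44 and 1.40. A further 7 polymerase II genes with Rpb symbols had a median difference of 0.08 and ranged from -0.03 (*Rpb7*) to 0.27 (*Rpb4*, in a locus with *Ada2a*). Together these 11 genes lay within 1.5-fold without exception, as did 81.8% of all expressed loci with a mean FPKM of at least 30, their level.

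RNA polymerase III was represented by far less mRNA in the examined genes that it does not share with polymerase II. *RpIII128* (now *Polr3B*; 2R, 12039041 to 12042623), its second-largest subunit, was at 3.85 in *w1118* and 8.74 in *zldZnF2*, a difference of 1.00 that just passes 2-fold. A second polymerase III gene, *Polr3E* (listed as *Sin*), was at 9.91 and 18.6, a difference of 0.84. Of the polymerase I genes, *RpI1*, the largest subunit, was at 3.33 and 9.19, a difference of 1.24. *RpI135* was at 4.02 and 5.57 and *RpI12* at 14.3 and 12.0.

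**Figure D4:**
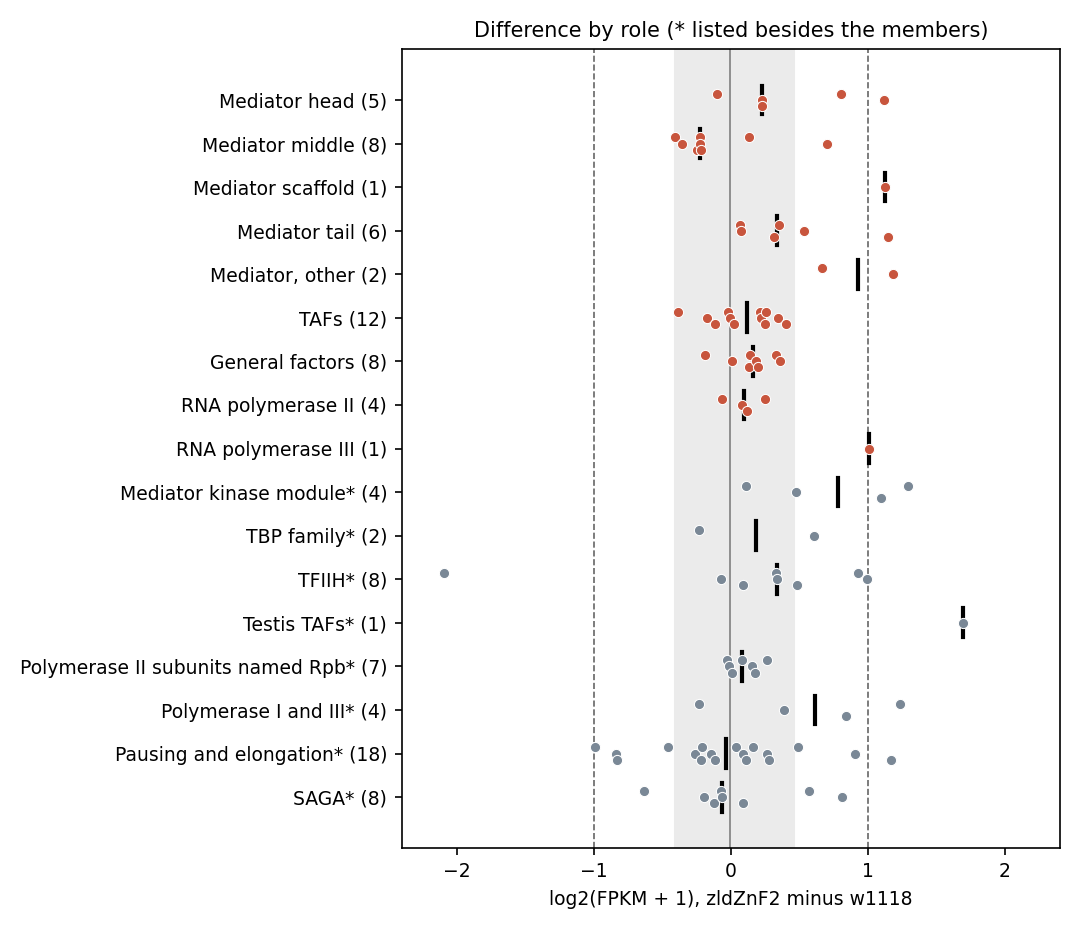
Difference between genotypes in log2(FPKM + 1), *zldZnF2* minus *w1118*, for each gene by role, members in red and genes listed besides them in grey, with the number of genes in parentheses and the median of each row as a black bar. The grey band spans the lower to the upper quartile of all 6265 expressed loci and dashed lines mark 2-fold. The polymerase II and general factor rows cluster near 0, while Mediator and TFIIH spread widely.

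Machinery genes outside the symbol pattern were taken from a list of 70 symbols, of which 52 further genes were expressed. Another 9 were on X and listed at 0, 3 were below an FPKM of 1 in both genotypes, 3 were not matched, 2 repeated a gene and 1 was *RpIII128*. The 52 genes had a median difference of 0.10, with 5 genes more than 2-fold higher and 1 more than 2-fold lower. At 1.5-fold these numbers were 11 and 5. The higher genes are 9.62% and 21.2% of the list, near the 9.82% and 21.0% of all expressed loci. Of all expressed loci 8.16% were more than 2-fold lower and 17.9% more than 1.5-fold lower. As ratios of FPKM with nothing added, 7 were more than 2-fold higher, with *Xpd* and *Mat1*, and 2 more than 2-fold lower, with *lilli*. Beyond 2-fold and not yet named were *Ssrp* and *Tfb4*. *Ssrp*, a subunit of the histone chaperone FACT, was at 15.5 and 36.2, a difference of 1.17.

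*Tfb4* (2L), a core subunit of the TFIIH helicase complex, had the largest decrease of the machinery, from 74.7 in *w1118* to 16.8 in *zldZnF2*, a difference of -2.09. None of the other 7 expressed TFIIH genes was more than 1.5-fold lower. *Xpd*, a TFIIH helicase, was at 13.5 and 27.9, a ratio of 2.07 that falls just short of 2-fold once 1 is added to each FPKM, and *Mat1*, of the TFIIH kinase module, at 3.90 and 8.31, a difference of 0.93. The other helicase gene *hay*, in a locus with *CG34001*, was at 45.4 and 57.3, and *Ssl1* was at 59.6 and 56.7. *Tbp*, the TATA-binding protein gene itself, went from 23.0 to 35.5, a difference of 0.60.

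Among 18 pausing and elongation genes the median difference was -0.04. Of these 9 were above 0 and 9 below, where 49.6% of all expressed loci were above 0. *Nelf-A*, of the pausing factor NELF, was at 17.9 and 34.5, a difference of 0.91. The 3 genes beyond 1.5-fold lower were *lilli* and *ear*, of the super elongation complex, and *Rtf1*, with differences of -0.99, -0.83 and -0.83. These are 3 of 18, where 17.9% of all expressed loci were lower by this much. For the 8 expressed genes of SAGA, the acetyltransferase complex that shares TAFs with TFIID, the median was -0.07. Its range ran from -0.63 (*Ada2b*) to 0.81 (*Spt3*).

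Maternal mRNAs are cleared from the embryo by a maternal pathway that starts at egg activation and a zygotic one that starts with genome activation. In the published decay classes that the study used, 2 members are in class II (degraded by the maternal pathway alone), *MED19* and *MED25*. Another 4 are in class III (degraded maternally and transcribed again), *MED17*, *MED30*, *MED8* and *TfIIS*. No member is in class IV (degraded by the zygotic pathway alone). That class holds 1075 of the 6265 expressed loci here, with a median difference of -0.39. The other 41 members are in none of these classes, as are 4531 of the expressed loci. Of these members 27 were above 0, with a median of 0.13, against 50.3% and 0.00 for those loci. All 6 members of classes II and III were higher in *zldZnF2*, with medians of 0.92 and 0.67. Classes II and III hold 344 and 325 of the 6265 expressed loci. The medians over these loci were 0.51 and 0.92, and 79.4% and 93.5% were higher. The median of the members was thus above that of the whole class in class II and below it in class III, from only 2 and 4 genes. *MED8* and *TfIIS*, with differences of 0.23 and 0.14, were the low end of class III among the members. Of the kinase module, *kto* is in class II and *Cdk8* in class III, while *skd* is in class IV. Other machinery genes outside the symbol pattern are also in class IV: *Trf*, *hay*, *Ssl1*, *Nelf-E*, *Rtf1*, *EloA*, *lilli*, *Ada2b*, *Spt20* and *RpI135*. The absence of class IV thus holds for the 47 members and not for the machinery as a whole.

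Gene structure was examined last. In 9 members every annotated transcript has 1 exon, and these include *MED30*, *MED25*, *MED20*, *MED28* and *MED16*. Their median difference was 0.53, with a range from -0.12 (*Taf5*) to 1.18 (*MED30*), and 4 of the 9 were beyond 1.5-fold. For the 38 members with an intron the median was 0.13, and 4 were beyond 1.5-fold. Over all single-gene expressed loci, 23.1% of those with 1 exon and 20.9% of those with introns were more than 1.5-fold higher. The single-exon members were also less abundant, with a median FPKM of 22.3 in *w1118* against 120.9. The median difference of these loci was 0.04 for 750 genes of 1 exon and -0.01 for 5151 genes with introns. Transcript length showed little relation to the difference over the 47 genes, with a Spearman's rho of 0.07.

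In 22 of the 47 members, annotated exons overlap those of another gene, in 20 of them on the opposite strand. Among the 8 genes beyond 1.5-fold this applies to *MED14* and *MED17*. The overlapping gene of *MED17*, *CG14313*, is listed at 0.134 in *w1118* and 0.663 in *zldZnF2*, far below the 11.1 and 25.1 of *MED17*. *MED1*, at the other end of the range, overlaps *Alg11* (listed as *CG11306*), which stood at 10.9 and 16.3 and so differed in the other direction.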

How the data were processed

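Poly(A) RNA of 6 samples of stage 5 embryos, 3 per genotype, was grouped by genotype as labelled. Per the study's methods, single-end reads were trimmed and filtered, aligned to dm6 by RNA-STAR and assembled by Cufflinks, and Cuffdiff compared the genotypes. The submitters' processing notes also name TopHat. They deposited 1 FPKM per genotype and locus. Options for counting, strand and normalization are not given in the sources used here, and depth is unknown. The deposited fold change, test statistic, p-value and q-value hold the authors' own comparison and were not used.

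From the FPKM, log2(FPKM + 1) differences were computed over autosomal loci whose FPKM reached 1 in 1 or both genotypes. Counts past 2-fold and 1.5-fold are shown beside the share of all such loci. All 47 symbols were matched, directly or by RefSeq synonym, to a gene of Ensembl release 115 that overlaps the locus. Coordinates are 1-based, from that annotation (dm6). Decay classes were matched by FlyBase identifier, or by CG number where the identifier is no longer annotated. Members and lists were chosen with earlier results of these data known. The rule named every member past 1.5-fold or next to it, in each role group the members with the highest and lowest FPKM and the difference nearest to 0, the paralog pairs, and other machinery genes past 2-fold. All further genes were singled out after their values were seen. The calculation was tested on simulated data. Alternatives were pseudocounts of 0.1 and 0, FPKM minimums of 5 and none, centring on the median, single-gene loci, and omission of polymerase III. Calculations used pandas 2.3.3 and NumPy 2.4.6 with SciPy 1.17.1 under Python 3.11.15, and plots used Matplotlib 3.10.9.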

Additional observations from a re-analysis of the deposited data

How the results depend on the processing

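The median difference of the members lay between 0.16 and 0.21 under the 7 alternatives, with 4 or 5 genes more than 2-fold higher, 7 or 8 more than 1.5-fold higher and none more than 1.5-fold lower. Of 111 recomputed log2 differences of members and role groups, 5 moved by 0.1 or more, a tolerance used because no spread between replicates is known, and none changed sign. The median over all loci stayed near 0, between -0.03 and 0.01. Over single-gene loci, which leaves out *MED9*, *MED15*, *MED23* and *MED31*, the median of Mediator was 0.34. *MED25* and *RpIII128*, the lowest of the genes beyond 2-fold, had differences of 1.28 and 1.16 with a pseudocount of 0.1, and 1.30 and 1.18 with none. Without *Taf12L*, which fails a minimum of 5, the median of the TAFs was 0.02. For the other machinery genes, a comparison without a pseudocount was added after seeing the data, and gave 2 genes more than 2-fold lower in place of 1. No paired analysis was possible because the values are pooled per genotype, and no sample could be left out for the same reason.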
